A study of Mus musculus with 23 samples.

Results

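Genes for 6 costimulatory receptors of T cells, Tnfrsf9 (4-1BB or CD137), Tnfrsf4 (OX40), Tnfrsf18 (GITR), Cd27, Cd28 and Icos, were followed through primary E0771 breast tumours. They were found by symbol in the normalized table, where all 6 of 6 were present among 770 genes. The tumours came from E0771 cells, a mouse mammary carcinoma line of C57BL/6 origin made to express luciferase and GFP, engrafted in the mammary gland of female C57BL/6J mice of 6 to 8 weeks with an intact immune system. Groups were Placebo (P, 6 tumours), Anakinra, a recombinant antagonist of the IL-1 receptor (A, 5 tumours), doxorubicin, a DNA-damaging cytotoxic drug, followed by zoledronic acid, a bisphosphonate that inhibits osteoclasts (DZ, 6 tumours), and all 3 drugs together (ADZ, 6 tumours). From each tumour, 150 ng of whole-tumour RNA was hybridised to barcoded nCounter probes, which are counted one by one without amplification. The A and DZ tumours came from separate animals, while for P and ADZ nothing says so, and p-values there measure the spread between tumours.

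T cells need a second signal beside the T cell receptor. CD28, bound by CD80 and CD86, gives this signal to resting T cells, and ICOS, a relative of CD28 bound by ICOS ligand, appears after activation and is prominent on helper and regulatory T cells. 4-1BB, OX40, GITR and CD27 belong to the TNF receptor family, signal through TRAF adaptors to NF-kB, and prolong the division and survival of T cells. CD27 is carried by resting T cells, whereas 4-1BB and OX40 are induced by activation, and regulatory T cells carry high levels of GITR, OX40 and ICOS. 4-1BB is also found on NK cells, dendritic cells and endothelium, so that its RNA in a whole tumour need not come from T cells.

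In the mouse annotation GRCm38.p6, Tnfrsf4 and Tnfrsf18 are direct neighbours on chromosome 4, which also carries Tnfrsf9. Cd28, Ctla4 and Icos follow each other on chromosome 1, and Cd27 lies on chromosome 6. Promoter sequences from RefSeq were matched for 4 of the 6 genes, in 5 windows of 250 bases before to 50 bases after a start, with 2 starts for Tnfrsf9. The 80 bases before each Tnfrsf9 start are shown, since Tnfrsf9 was the gene that varied apart from the other 5 across tumours, with those of Cd27, which varied most closely with T cell genes next to Icos. Capitals mark matches, on either strand, to the NF-kB consensus and to the AP-1 motif TGANTCA.
Tnfrsf9, first start, chr4:150920075-150920154, plus strand: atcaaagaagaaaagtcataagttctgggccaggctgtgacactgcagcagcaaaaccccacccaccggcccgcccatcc
Tnfrsf9, second start, chr4:150927919-150927998, plus strand: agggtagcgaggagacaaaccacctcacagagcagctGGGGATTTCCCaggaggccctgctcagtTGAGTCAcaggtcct
Cd27, chr6:125237028-125237107, minus strand: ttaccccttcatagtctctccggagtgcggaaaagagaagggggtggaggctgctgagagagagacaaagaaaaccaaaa
The second Tnfrsf9 window held 2 overlapping NF-kB matches at positions -43 to -33 from the start and 1 AP-1 match at -15 to -9. The 4 other windows, those of Tnfrsf4 and Tnfrsf18 among them, held neither motif and no TATAAA. Of 32851 promoter windows of this length, 8.46% held the NF-kB consensus, 7.81% AP-1 and 13.6% TATAAA. A match describes the letters only, and binding was not measured here.

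Each tumour's counts were multiplied by a single factor, which brought the mean of 20 reference genes to 11.4, and are given as log2 values, on which a difference of 1 is 2-fold. Totals ran from 882537 to 1677295 gene counts per tumour. Probes differ in efficiency, so levels were compared between tumours and not between genes. A gene counted as above background where it exceeded the 8 negative control probes of its tumour (mean and 2 SD). Tnfrsf9, Tnfrsf4, Cd28 and Icos lay above it in all 23 tumours, Tnfrsf18 in 22 and Cd27 in 16, so that a part of the Cd27 values is only a bound. The geometric mean over all tumours was 29.9 normalized counts for Cd27, 37.8 for Cd28 and 41.7 for Tnfrsf18, against 88.4 for Tnfrsf4, 130 for Icos and 165 for Tnfrsf9, so the first 3 carry a larger counting error. All 9 T cell markers were on the panel, none lay below background in every tumour, and 5 lay above it in all 23. Tumour P4 stood apart, with a summed B cell marker level of 3530 normalized counts against at most 188 in any other tumour, and a summed lymph node marker level of 8073 against at most 1654. Where leaving out P4 moved a result against P, the value without it is given beside it.

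The factors fell into 2 sets, 12 tumours at 0.759 to 0.961 and 11 tumours at 1.09 to 1.57, with no tumour between. The sets were unevenly spread over the groups, with 2 of 6 P tumours, 2 of 5 A, 4 of 6 DZ and 3 of 6 ADZ tumours over 1. The labels name no batch. Cd28 separated completely by this split. It lay between 4.21 and 5.18 in the 12 tumours with a factor under 1 and between 5.40 and 6.19 in the 11 with a factor over 1, a difference of 0.97 log2 units. In these log2 values the sets did not overlap for Cd28, as for 9 of 770 genes (1.17%), and overlapped for the other 5 receptors. Before the factor was applied the Cd28 counts did overlap, at 23 to 39 for factors under 1 and 32 to 56 over 1. The background of the tumours split with the factor as well, at 4.06 to 4.68 under 1 and 4.71 to 5.37 over 1. The lowest Cd28 value, 4.21 in P tumour 6, lay close to its background of 4.16. Over the panel the median difference between the sets was 0.26, with 0.77 for Cd27, 0.51 for Icos, 0.36 for Tnfrsf18, 0.26 for Tnfrsf4 and -0.19 for Tnfrsf9. Marker lists moved the same way, by 0.56 for T cells and 0.77 for regulatory T cells. Since a value holds the factor by construction, differences were also fitted with the set as a block, and correlations taken within the sets, a choice made after the data were seen. The block fits against P keep P4, whose factor is over 1.

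**Figure D1:**
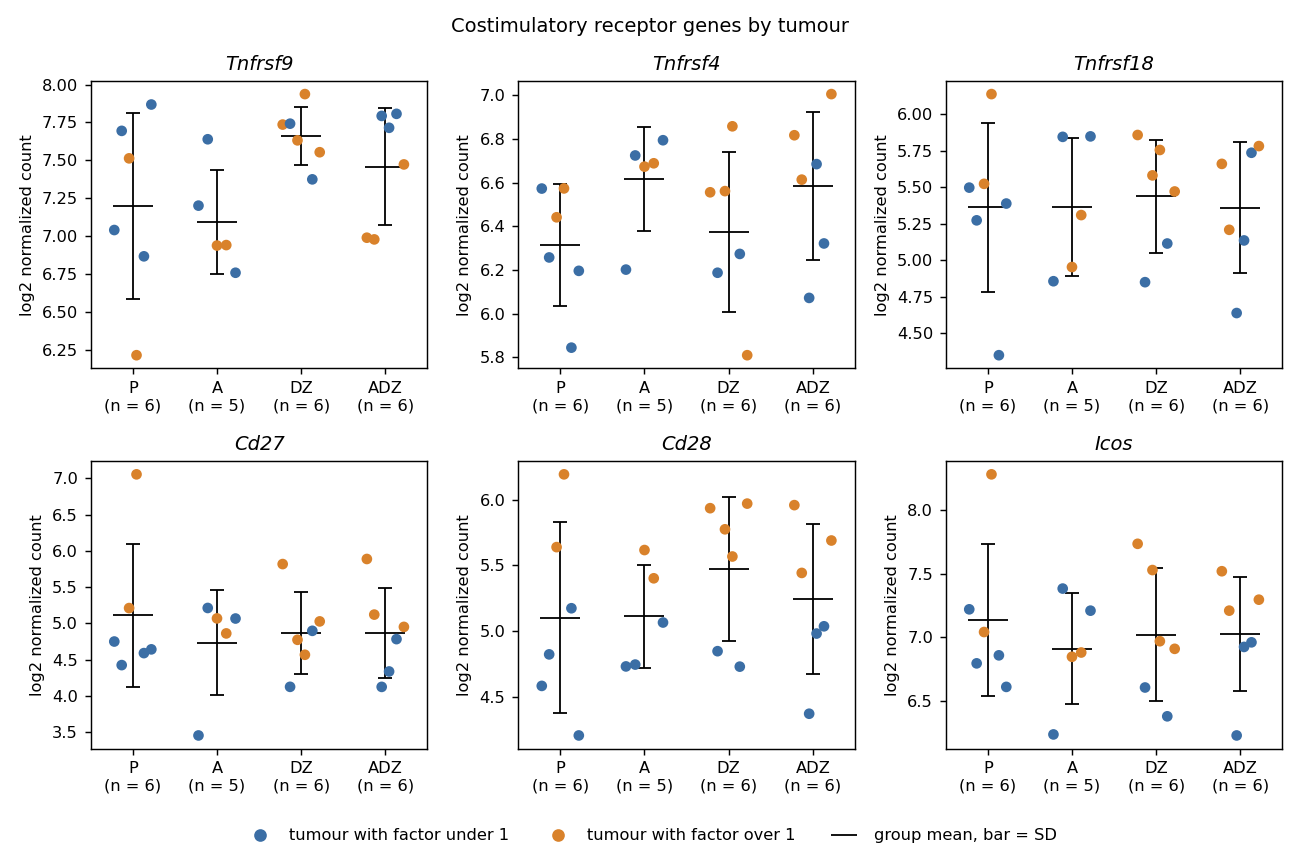
Log2 normalized counts of the 6 receptor genes (y axis) in every tumour by group (x axis, P, A, DZ and ADZ), with points coloured by the set of the tumour's factor and black lines for the group mean and SD. In the Cd28 panel all 11 tumours with a factor over 1 lie above all 12 with a factor under 1, while the 4 groups overlap for each gene.

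Tnfrsf9 was lower in A than in DZ tumours on average, without a call. The 6 DZ tumours lay at 7.74, 7.74, 7.63, 7.94, 7.38 and 7.55, the narrowest group of the 4. The 5 A tumours lay at 7.20, 7.64, 6.94, 6.94 and 6.76. Every A tumour was below the DZ mean, but A tumour 2 lay above 3 of the DZ tumours, so the groups overlapped. The P tumours spread widely, at 7.04, 7.69, 7.51, 6.22, 6.87 and 7.87, with P4 the lowest of all 23. The ADZ tumours split into 6.99 and 6.98 on one side and 7.79, 7.72, 7.81 and 7.47 on the other.

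Group means were 7.10 ± 0.34 for A (SD, n = 5), 7.66 ± 0.19 for DZ (n = 6), 7.20 ± 0.62 for P (n = 6) and 7.46 ± 0.39 for ADZ (n = 6). A minus DZ was -0.57 (SE 0.18, 95% confidence interval -0.95 to -0.18), a ratio of 0.675. Its p was 0.00789 and its adjusted p 0.743 (limma, two-sided, Benjamini-Hochberg over 770 genes), so that it is not a call. Of 770 genes, 33 (4.29%) had an unadjusted p under 0.05 between A and DZ, 32 of them lower in A, and Tnfrsf9 was rank 8 by p among them. The median over all genes was itself -0.13, and with each tumour recentred on its panel median A minus DZ was -0.35. With the factor set as a block it was -0.58. The study listed Tnfrsf9 among genes it picked between these same A and DZ tumours by thresholds on FDR and fold change. Neither its FDR threshold of 0.05 nor its fold change threshold was met in the fit given here, where the ratio was 0.675. The study's list gives no direction for Tnfrsf9, and the shared tumours make this comparison no independent evidence.

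DZ minus P was 0.46 for Tnfrsf9 (SE 0.24, 95% confidence interval -0.03 to 0.96, adjusted p = 0.9997 in limma), and all 6 DZ tumours lay above the P mean. Without P4 it fell to 0.27, and with the factor set as a block it was 0.57 (0.09 to 1.04, adjusted p = 0.703 in limma). The block fit keeps P4, 1 of the 2 P tumours with a factor over 1. DZ minus P was 0.19 within the tumours under 1 (2 against 4 tumours) and 0.85 within those over 1 (4 against 2 tumours). ADZ minus P was 0.26 (0.06 without P4, 0.31 with the block), A minus P -0.10 (-0.30 without P4, -0.08 with the block) and ADZ minus DZ -0.20 (-0.26 with the block), none of them past the threshold. Within the tumours with a factor under 1, A minus DZ was -0.36 (3 against 2 tumours), and within those over 1 it was -0.77 (2 against 4 tumours). These within-set values have too few tumours for a test. Markers of endothelium, a cell type that can carry 4-1BB, differed alongside: the mean log2 value of the 4 markers was 7.49 ± 0.54 in A and 8.01 ± 0.26 in DZ (SD), a difference of -0.52. They also split the ADZ tumours as Tnfrsf9 did, at 6.78 and 6.77 against 8.34, 8.20, 7.86 and 7.76. In P4, with the lowest Tnfrsf9, they stood at 8.26, the highest of the P tumours. Within DZ the tumour with the highest Tnfrsf9, at 7.94, had the lowest endothelial mean, at 7.65. Within A the tumour with the lowest Tnfrsf9, at 6.76, had an endothelial mean of 7.87. A tumour 2, with the highest Tnfrsf9 of that group at 7.64, had 7.53. Of these 4 markers 3 lay above background in all 23 tumours, and their summed level ran from 754 to 1596 normalized counts in A and from 1239 to 2003 in DZ. Other lists were also lower in A than in DZ on average, among them lymph node (5.63 against 6.16) and myeloid markers (9.35 against 9.69). Markers of NK and dendritic cells, which can also carry 4-1BB, stood at 6.13 against 6.23 and at 5.86 against 6.06. The part of any of these lists in the Tnfrsf9 result was not tested.

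**Figure D2:**
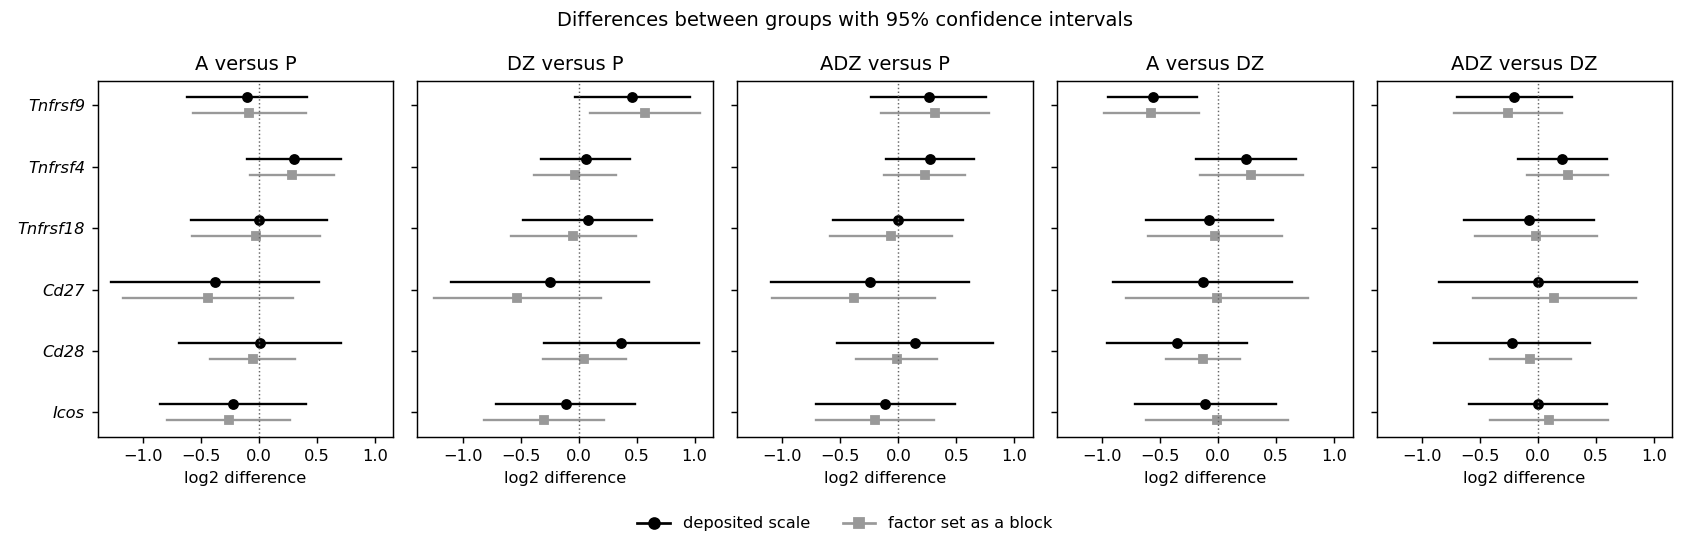
Log2 difference between groups (x axis) for each receptor gene (y axis) in 5 comparisons, the first group minus the second, with 95% confidence intervals from limma. Black circles are the deposited scale and grey squares the fit with the factor set as a block. The intervals that leave out 0 are those of Tnfrsf9 for A versus DZ on both scales and for DZ versus P with the block, a fit that keeps P4.

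Tnfrsf4, the OX40 gene, was the only receptor whose mean was higher with Anakinra both without and with the other drugs. Its values were 6.57, 6.26, 6.44, 6.57, 5.84 and 6.20 in P and 6.20, 6.72, 6.67, 6.69 and 6.79 in A. Of the 5 A tumours, 4 lay above every P tumour, and A tumour 1 lay below the P mean. DZ tumours were at 6.56, 6.19, 6.56, 6.86, 6.27 and 5.81, and ADZ tumours at 6.82, 6.61, 6.07, 6.68, 6.32 and 7.005. A minus P was 0.30 (SE 0.19, 95% confidence interval -0.10 to 0.70), ADZ minus P 0.27 (-0.11 to 0.65), ADZ minus DZ 0.21 (-0.17 to 0.59) and A minus DZ 0.24 (-0.19 to 0.67), with adjusted p of 0.995 or above in limma. Each of these intervals holds 0, and the groups overlapped in each. Without P4, A minus P was 0.35 and ADZ minus P 0.32, and with the factor set as a block the 4 differences were 0.28, 0.23, 0.26 and 0.29.

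Cd28 was higher in DZ before the factor was taken into account. The values were 5.93, 4.85, 5.77, 5.57, 4.73 and 5.97 in DZ and 4.59, 4.83, 5.64, 6.19, 5.18 and 4.21 in P. In DZ, the 2 tumours with a factor under 1 were the 2 lowest, at 4.85 and 4.73. DZ minus P was 0.37 (SE 0.32, 95% confidence interval -0.30 to 1.04, adjusted p = 0.9997 in limma) and 0.58 without P4. With the factor set as a block it was 0.05 (SE 0.17, -0.31 to 0.41). A minus DZ likewise went from -0.36 (SE 0.28) to -0.13 (SE 0.14). Cd28 was 4.73, 4.75, 5.62, 5.40 and 5.07 in A and 5.96, 5.44, 4.38, 4.98, 5.04 and 5.69 in ADZ, where ADZ minus DZ was -0.22 and -0.06 with the block.

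Cd27, a receptor of resting T cells bound by CD70, had its highest value in P4, at 7.06, against 4.43 to 5.21 in the 5 other P tumours. Its median was 4.70 for the P tumours, 5.07 for A, 4.84 for DZ and 4.87 for ADZ. The means went the other way against P, by -0.38 for A, -0.24 for DZ and -0.24 for ADZ, and without P4 these became 0.01, 0.14 and 0.14. They were -0.44, -0.53 and -0.39 with the factor set as a block, a fit that keeps P4. Adjusted p was 0.999 or above for each in limma on all tumours. The lowest Cd27 value was 3.46 in A tumour 1, which lay under its background.

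Icos was also highest in P4, at 8.28, with 6.61 to 7.22 in the other P tumours. It lay between 6.23 and 7.38 in A, 6.38 and 7.74 in DZ, and 6.22 and 7.52 in ADZ, and its group means were 7.13 ± 0.60, 6.91 ± 0.44, 7.02 ± 0.52 and 7.02 ± 0.45 (SD) for the P, A, DZ and ADZ groups. A minus P was -0.22 (SE 0.30, 95% confidence interval -0.85 to 0.40) and 0.01 without P4. DZ minus P was -0.11 and ADZ minus P -0.11, which became 0.12 and 0.12 without P4 and -0.30 and -0.20 with the factor set as a block. Tnfrsf18 had means of 5.36, 5.36, 5.44 and 5.36 in the same order, with SDs of 0.39 to 0.58. Its differences lay between -0.08 and 0.08, with SEs of 0.25 to 0.28 and 95% confidence intervals reaching from -0.64 to 0.64. Without P4 its differences from P were 0.16 for A, 0.23 for DZ and 0.15 for ADZ, and with the block they lay between -0.06 and -0.02.

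No gene of the panel passed an adjusted p of 0.05 in limma in any of 7 comparisons (0 of 770 genes, 0% in each), and so none of the 6 receptors did. At an unadjusted p under 0.05 the panel gave 9 genes for A versus P (1.17%), 12 for DZ versus P (1.56%), 11 for ADZ versus P (1.43%), 8 for ADZ versus DZ (1.04%), 1 for ADZ versus A (0.13%) and 2 for the interaction of Anakinra with DZ (0.26%). No receptor was among these. With the factor set as a block the counts were 21, 49, 28, 17, 2 and 10 in the same order, and 36 for A versus DZ, and Tnfrsf9 was then among the 49 (unadjusted p 0.0214). Without P4, DZ versus P gave 27 genes, and the counts with each other tumour left out are given at the end. The interaction, which asks whether Anakinra acts differently on top of the other drugs, had p between 0.532 and 0.842 over the 6 receptors. limma-voom on the recovered counts also called 0 genes in each comparison.

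Of the ligands, 3 were above background throughout. Cd80 and Cd86, the ligands of CD28 and CTLA-4 on antigen-presenting cells, and Icosl lay above it in all 23 tumours, Tnfsf4 (OX40 ligand) in 19, Cd70 in 18 and Tnfsf18 (GITR ligand) in 17. None of the 6 ligands passed the adjusted threshold. Cd70, the ligand of CD27, was 4.53 in A and 5.28 in DZ on average, with A minus DZ at -0.75 (SE 0.34, adjusted p = 0.995 in limma). The unadjusted p of this fit was 0.0495. Cd70 lay above background in 3 of 5 A and 5 of 6 DZ tumours, so a part of these values is only a bound. Of the 6 ligands, 5 were lower in A than in DZ with a median of -0.20, where 575 of 770 genes were lower and the panel median was -0.13.

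Of the 28 genes of the axis other than the receptors, 2 had an unadjusted p under 0.05 in A versus DZ, Cd70 and Il21, and none did in the other 6 comparisons. Il21, a cytokine of follicular helper T cells, and Il2, the growth factor of T cells, lay at or below background in all 23 tumours, so the Il21 difference of -0.56 rests on counts at the background. The inhibitory receptors Ctla4, which competes with CD28 for its ligands, Pdcd1 and Btla were all lower in A than in DZ, with a median of -0.30. All 9 other TNF receptors were lower as well, with a median of -0.24. Over the panel 575 of 770 genes were lower, with a median of -0.13. Btla lay above background in 16 of 23 tumours, Tnfrsf13c in 6 and Tnfrsf17 in 2. The adaptors Traf2, Traf3 and Traf6 had differences of -0.01, 0.13 and 0.09. Relb and Nfkb2, subunits of the alternative NF-kB pathway that these receptors feed, differed by 0.11 and -0.05.

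To set the receptors against the T cell RNA of the same tumour, the mean of Cd3d, Cd3e and Cd3g, chains of the T cell receptor complex, was subtracted. In bulk RNA, fewer cells of a type and less RNA per cell cannot be told apart. The CD3 mean (± SD) of the P tumours was 7.34 ± 0.77, that of A 6.99 ± 0.70, of DZ 6.99 ± 0.43 and of ADZ 7.02 ± 0.61, with P4 the highest at 8.89. Relative to CD3, 5 of 6 receptors were higher in A than in P, and 6 of 6 in DZ and in ADZ. The whole panel moved likewise, with 650, 729 and 647 of 770 genes higher and medians of 0.27, 0.38 and 0.28 against receptor medians of 0.30, 0.41 and 0.39, and without P4 the panel medians were 0.07, 0.19 and 0.07. Genes with an unadjusted p under 0.05 numbered 3 (0.39%), 34 (4.42%) and 7 (0.909%).

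Cd28 was the only receptor among them, with DZ minus P at 0.71 (SE 0.33, 95% confidence interval 0.04 to 1.38, adjusted p = 0.596 in limma). The unadjusted p of this fit was 0.0375, and it rose over 0.05 in 6 of 12 fits with a tumour left out. Relative to CD3 it stood at -1.63, -1.77, -1.66, -1.52, -1.87 and -0.69 in DZ and at -2.49, -2.29, -1.48, -2.70, -1.54 and -2.92 in P. All DZ tumours were above the P mean, and P tumours 3 and 5 lay inside the DZ range. Without P4 the difference was 0.62, and with the factor set as a block 0.60 (SE 0.32, -0.06 to 1.25). In ADZ the same quantity lay within -1.85 to -1.66, an SD of 0.08 against 0.43 to 0.82 in the other groups.

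Tnfrsf4 relative to CD3 was 0.65 higher in A than in P (SE 0.32, adjusted p = 0.867), 0.59 in ADZ (SE 0.30, adjusted p = 0.840) and 0.41 in DZ, by limma. P4 had the lowest value, at -2.31, and without it the differences were 0.40, 0.34 and 0.15. Tnfrsf9 relative to CD3 was 0.25 higher in A, 0.81 in DZ and 0.58 in ADZ. These became -0.26, 0.30 and 0.08 without P4, whose value of -2.67 lay far below the other P tumours. With the factor set as a block Tnfrsf9 was 1.12 higher in DZ (0.24 to 1.99, adjusted p = 0.206 in limma), and Tnfrsf4 0.68 higher in A and 0.65 in ADZ (adjusted p = 0.762 and 0.611 in limma). These 3 intervals left out 0 and that of Cd28 did not, so which receptors fell under an unadjusted p of 0.05 changed with the block. Under it 167 of 770 genes did so for DZ versus P, 9 for A versus P and 33 for ADZ versus P. These block fits keep P4.

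For Tnfrsf18 the differences relative to CD3 were 0.35, 0.42 and 0.32, and 0.20, 0.27 and 0.17 without P4. For Icos they were 0.13, 0.23 and 0.21, and 0.05, 0.15 and 0.13 without P4. For Cd27 they were -0.03, 0.10 and 0.08, and 0.05, 0.18 and 0.16 without P4. The SD of the level relative to CD3 within groups was 0.18 to 0.33 for Icos and 0.27 to 0.48 for Cd27.

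**Figure D3:**
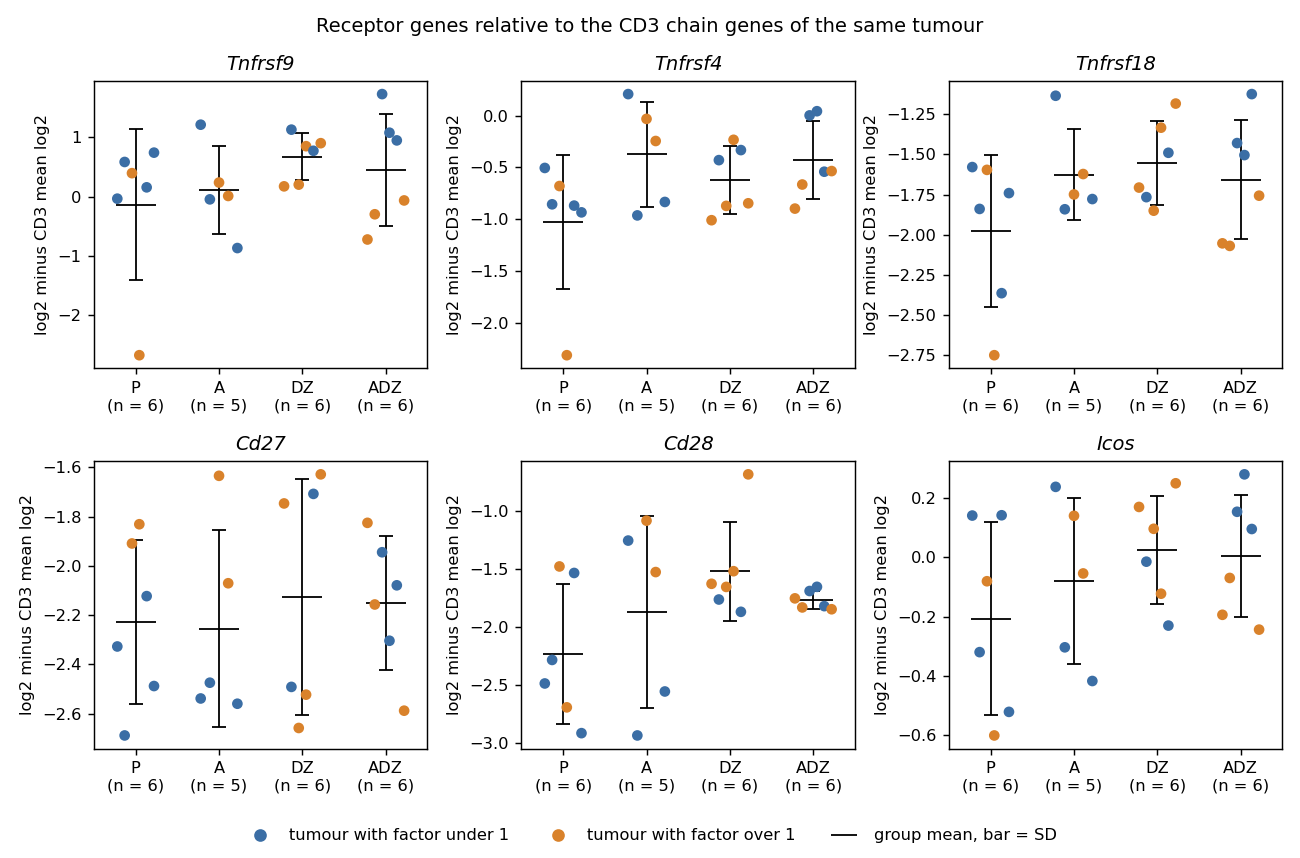
Log2 value of each receptor gene minus the mean log2 value of Cd3d, Cd3e and Cd3g in the same tumour (y axis), by group (x axis), with points coloured by factor set and black lines for the mean and SD. P4 is the lowest point for Tnfrsf9 (-2.67) and Tnfrsf4 (-2.31), and the 6 ADZ tumours lie within -1.85 to -1.66 for Cd28.

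Across tumours, Icos, Cd27 and Tnfrsf18 varied together. Over 23 tumours, Cd27 and Icos had Pearson r = 0.853 (adjusted permutation p = 5.1e-05) and Spearman rho = 0.711 (adjusted p = 0.000583). Tnfrsf18 and Icos had r = 0.752 (adjusted permutation p = 0.000306) and rho = 0.825 (adjusted p = 0.000146), and Tnfrsf18 and Cd27 r = 0.664 (adjusted permutation p = 0.00126) and rho = 0.645 (adjusted p = 0.00221). P-values are two-sided, from 100000 permutations, adjusted over the 51 relations computed. Without the 2 tumours farthest from the median of the first gene, these 3 r were 0.720, 0.799 and 0.699, and without P4 0.772, 0.708 and 0.602. Within the tumours with a factor under 1 they were 0.724, 0.680 and 0.656, and within those over 1 0.840, 0.763 and 0.575. With each tumour recentred on its panel median they fell to 0.672, 0.452 and 0.272, and of the 3 pairs only Cd27 with Icos then had an adjusted p under 0.05 (0.00391, permutation).

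Of the 15 pairs of receptors, 9 had an adjusted p under 0.05 for a positive r or, for Tnfrsf9 with Cd27, a negative one. After recentring 4 did, Tnfrsf9 with Cd27, Tnfrsf4 with Tnfrsf18, Cd27 with Icos and Cd28 with Icos, while Tnfrsf4 with Icos, Tnfrsf18 with Cd27, Cd28 and Icos, and Cd27 with Cd28 no longer did. Tnfrsf4 varied with its chromosomal neighbour Tnfrsf18 (r = 0.603, rho = 0.577) and with Icos (r = 0.524, rho = 0.596). For Tnfrsf4 and Tnfrsf18 r was 0.801 in the tumours with a factor under 1 and 0.136 in those over 1. The relation was thus not seen in both sets.

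T cell markers tracked the same genes. The mean of the 9 markers had r = 0.938 with Icos (rho = 0.918), 0.895 with Cd27 (rho = 0.772), 0.795 with Tnfrsf18 (rho = 0.892), 0.627 with Cd28 (rho = 0.610) and 0.538 with Tnfrsf4 (rho = 0.661), with adjusted permutation p of at most 0.0123. With each tumour recentred on its panel median, r stayed at 0.836 for Icos and 0.794 for Cd27. It fell to 0.495 for Tnfrsf18, 0.339 for Cd28 and 0.222 for Tnfrsf4. For Icos r was 0.872 and 0.959 in the 2 factor sets, 0.906 without the 2 farthest tumours, and 0.951, 0.971 and 0.946 within P, DZ and ADZ alone. For Cd28 it was 0.251 in the tumours with a factor under 1 and 0.717 in those over 1. Tnfrsf18 had r = 0.787 with NK cell markers, and Cd27 had r = 0.823 with B cell markers, 0.791 without P4.

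Cd28 varied with the mean of the regulatory T cell genes Foxp3, Il2ra and Ctla4. With this mean it had r = 0.888 and rho = 0.870 (adjusted permutation p = 5.1e-05 and 0.000127). With the factor set means removed r was 0.762, within the sets 0.802 and 0.709, and within P, DZ and ADZ 0.945, 0.924 and 0.947. Ctla4, a part of this mean, lies beside Cd28 on the chromosome and alone had r = 0.898 with Cd28. The r of Cd28 with Foxp3 or Il2ra alone is not given here. Between the factor sets Ctla4 differed by 1.19, against 0.97 for Cd28, 0.79 for Foxp3 and 0.33 for Il2ra. Cd28 also had r = 0.708 with myeloid, 0.673 with NK cell, 0.601 with lymph node and 0.547 with B cell markers.

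Tnfrsf9 did not rise with the other receptors. Over all 23 tumours its r was negative with each of the other 5 receptors and with all 6 marker lists, from -0.06 with Tnfrsf18 to -0.55 with B cell markers. Those with Tnfrsf18 and lymph node markers were positive without P4, and the rest stayed negative. With Cd27 r was -0.509 over all tumours (adjusted permutation p = 0.0210, rho = -0.445 with adjusted p = 0.0521), and with T cell markers -0.463 (adjusted permutation p = 0.0370, rho = -0.267 with adjusted p = 0.254). Without P4, the tumour with the lowest Tnfrsf9 and the highest T cell markers, r was -0.22 with Cd27 and -0.141 with T cell markers. Without the 2 tumours farthest from the Tnfrsf9 median it was -0.194 and -0.02. The groups differed in this: within ADZ, which does not hold P4, r was -0.84 with Cd27 and -0.73 with T cell markers, and within DZ -0.18 and 0.34 (n = 6 tumours each, no test). After recentring on the panel median r was -0.640 and -0.616 over all 23 tumours, P4 included. P4 had the highest panel median, at 9.09 against at most 8.64 in the others, and r after recentring without it is not given here.

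**Figure D4:**
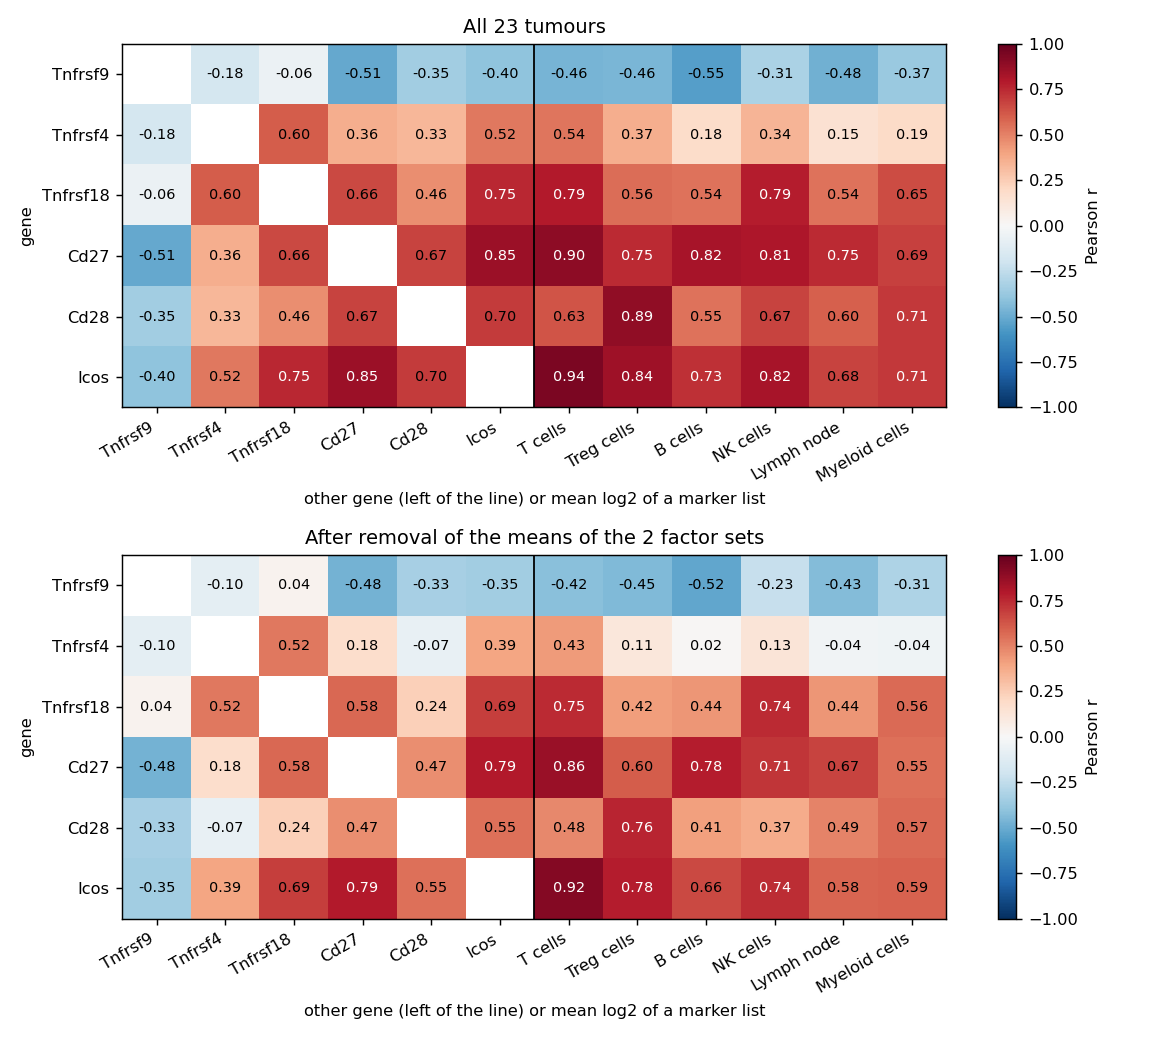
Pearson r of each receptor gene (rows) with the other receptors and with the mean log2 value of 6 marker lists (columns), over all 23 tumours (top) and after removal of the means of the factor sets (bottom), on a colour scale from -1 to 1. Icos, Cd27 and Tnfrsf18 form a red block with T and NK cell markers in both maps, the Tnfrsf9 row is blue in the top map, and the Cd28 row pales in the bottom map except with Treg cells (0.76).

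The genes most like each receptor were searched among 696 panel genes with a mean of at least 20 normalized counts, by Pearson r over the 23 tumours, and are given as a description. Icos was closest to Cd3d (r = 0.920), Zap70, the kinase that starts T cell receptor signalling (0.905), and Sh2d1a, the SLAM-associated adaptor of T and NK cells (0.901). Cd27 was closest to Zap70 (0.925), Cd3e (0.911) and the B cell gene Cd22 (0.906). Tnfrsf18 was closest to Cd83, a marker of activated dendritic and B cells (0.868), the class I gene H2-T23, which encodes Qa-1 (0.855), and Klrd1, the CD94 chain of the receptor for Qa-1 (0.853).

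Cd28 was closest to Gfi1, a transcriptional repressor of lymphoid and myeloid development (0.925), Tnfsf8, the CD30 ligand (0.910), and Ctla4 (0.898). These fell to 0.736, 0.638 and 0.620 with the factor set means removed. Tnfsf8 had a geometric mean of 18.7 normalized counts. Its mean of 3.58 in the tumours with a factor under 1 lay below the lowest background there, 4.06. With the log2 factor itself, r was 0.890 for Cd28, 0.837 for Gfi1 and 0.866 for Tnfsf8. Tnfrsf4 had weaker partners, the inhibitory receptor Lag3 (0.651), Cd5 (0.633) and the chemokine receptor Cxcr6 of resident T cells (0.607). Tnfrsf9 was closest to genes outside the T cell lists, the tetraspanin Cd9 (0.725), Cd47, the ligand that restrains phagocytosis (0.698), and Angpt2, an angiopoietin of activated endothelium (0.686). These held with the factor set means removed, at 0.71, 0.706 and 0.685, and without P4 at 0.565, 0.721 and 0.611.

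**Figure D5:**
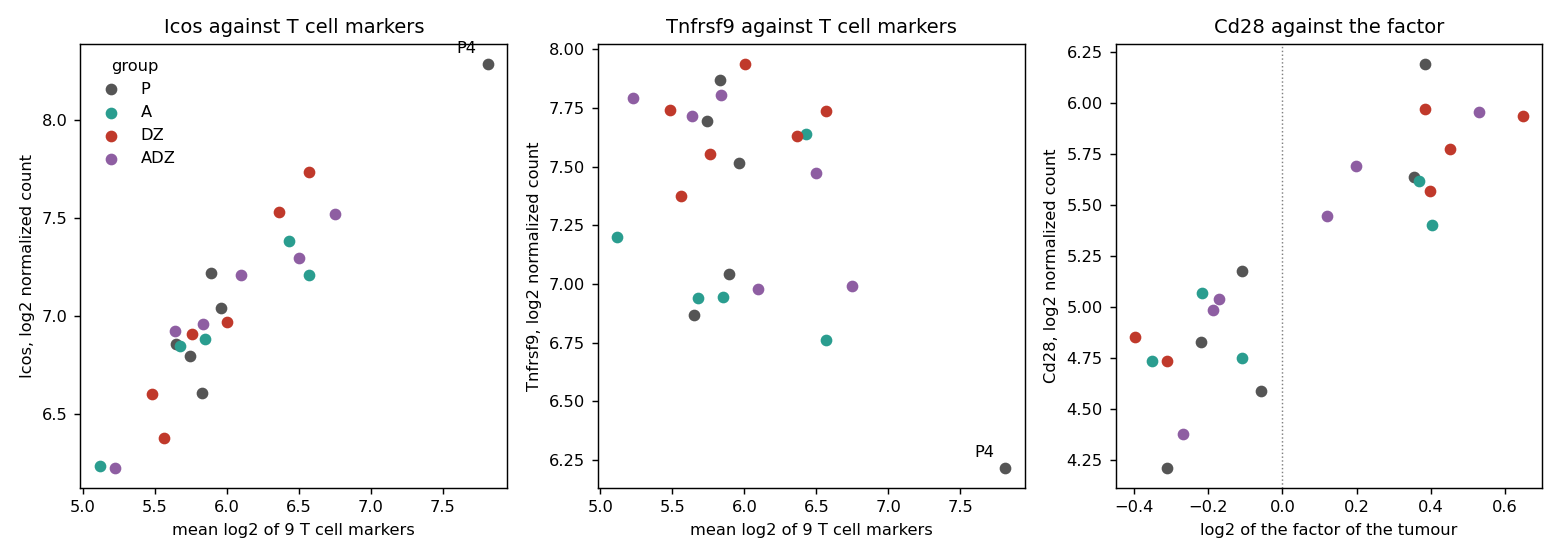
Log2 normalized counts (y axis) of Icos and Tnfrsf9 against the mean log2 value of 9 T cell markers, and of Cd28 against log2 of the factor of the tumour (x axes), 1 point per tumour coloured by group. Icos rises with the T cell markers across all groups, Tnfrsf9 does not and has its lowest point in P4, and Cd28 falls into 2 clouds on either side of a factor of 1.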

How the data were processed

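RNA of 23 tumours was counted on the nCounter panCancer mouse immune panel, and the authors normalized it in nSolver with Advanced Analysis. The deposited table holds log2 values in 784 lines (750 endogenous and 20 reference genes, with 6 positive and 8 negative control probes). Division by 1 factor per tumour gave whole counts for 100% of values within 0.05; 6 values are listed at exactly 0. Differences between groups came from limma 3.58.1 under R 4.3.3, fitted to these log2 values without change (moderated two-sided tests, p adjusted by Benjamini-Hochberg across the 770 genes), A versus DZ on their 11 tumours and the others on all 23. Fits were tested on simulated data. The receptors and lists were chosen with earlier results of these data known. Named are the 6 receptors, their ligands, inhibitory receptors, adaptors, downstream genes, other TNF receptors, and the 3 genes most like each receptor. Of the genes looked for, Tnfsf9, Traf1, Traf5 and Map3k14 were not analysed here. Alternatives were a pseudocount of 1, a filter at a mean of 20, recentring, quantile normalization, the background as floor, limma-voom on recovered counts, a replicate block, an intensity trend, other tumours in the fit and leaving out each tumour. Symbols of 754 of 770 genes matched the annotation. Figures were drawn with matplotlib 3.10.9.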

Additional observations from a re-analysis of the deposited data

Results flagged for a closer look

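Within groups, 4 of 24 sets of values (6 receptors in 4 groups) had 1 tumour whose gap to its nearest neighbour took more of the range than Dixon's critical value for the group's size, where chance alone marks about 1 set in 20. Cd27 in P4 was 7.06, against 4.43 to 5.21 in the other P tumours. Icos in P4 was 8.28, against 6.61 to 7.22. P4 is the tumour with the B cell and lymph node markers given above, and its panel median was 9.09 against 7.94 to 8.32 in the other P tumours. Cd27 in A tumour 1 was 3.46, against 4.86 to 5.21 in the other A tumours, and Tnfrsf4 in the same tumour was 6.20, against 6.67 to 6.79. All 4 thus came from P4 or A tumour 1. The share of all 770 genes marked by this rule was not computed, so the count says nothing particular about the receptors.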

How the results depend on the processing

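No alternative gave a gene an adjusted p under 0.05 in any comparison, leaving out each tumour in turn included. Of the receptors' differences, those of at least 0.2 log2 units in A, DZ and ADZ against P, A against DZ and ADZ against DZ, and relative to CD3 those against P, were followed over the alternatives and kept their direction except as listed here. With each tumour left out in turn, A minus P ran from -0.52 to 0.00940 for Cd27 and from -0.34 to 0.00625 for Icos, DZ minus P from -0.43 to 0.14 and ADZ minus P from -0.45 to 0.14 for Cd27, and A minus P relative to CD3 from -0.26 to 0.49 for Tnfrsf9, where both P4 and A tumour 1 turned the sign. The value of Tnfrsf9 ADZ versus DZ was 0.0117 after recentring on the panel median. In the same comparisons, the 15 differences under 0.2 and the 4 relative to CD3 each changed sign under at least 1 alternative. Without P4 the interaction turned from 0.38 to -0.01 for Cd27 and from 0.23 to -0.00433 for Icos. A minus DZ for Tnfrsf9 ran from -0.70 to -0.48 with each tumour left out (p 0.00111 to 0.0241) and from -0.59 to -0.35 otherwise, where 2 of 10 alternatives had a p over 0.05. Replicate numbers were not treated as pairs: like-numbered tumours correlated above 0.1 in 4 of 5 pairs of A and P, 3 of 6 of ADZ and DZ, 2 of 5 of ADZ and A, 1 of 5 of A and DZ, 1 of 6 of DZ and P and 1 of 6 of ADZ and P. With the replicate block A minus DZ for Tnfrsf9 was -0.59 and still 0 genes were called. With each tumour left out, genes at an unadjusted p under 0.05 numbered 5 to 17 for A versus P, 7 to 27 for DZ versus P (27 without P4), 5 to 25 for ADZ versus P and 4 to 24 for ADZ versus DZ (25 and 24 without ADZ tumour 4), 22 to 66 for A versus DZ (66 without DZ tumour 2), 0 to 9 for ADZ versus A and 1 to 5 for the interaction. Over the other alternatives the highest counts came with the factor set as a block, except for ADZ versus A (8 with only these groups fitted).

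Of the 15 receptor pairs, 9 had an adjusted p under 0.05, and 4 after recentring; the cause was not tested. After recentring, r was 0.34 for Tnfrsf9 with Tnfrsf4, 0.0662 for Tnfrsf9 with Tnfrsf18, -0.00653 for Tnfrsf4 with Cd27, -0.30, -0.37 and -0.29 for Tnfrsf4 with B cell, lymph node and myeloid markers, and -0.00796 and -0.0444 for Tnfrsf18 with B cell and lymph node markers. Tnfrsf9 with Tnfrsf18 was 0.20 without P4, 0.34 without the 2 farthest tumours and 0.0387 with the factor set means removed. Tnfrsf9 with lymph node markers was 0.0927 without P4 and 0.0869 without the 2 farthest. With the factor set means removed, Tnfrsf4 had -0.0719 with Cd28, -0.0377 with lymph node and -0.0428 with myeloid markers. Counts near background limit Cd27, Cd28 and Tnfrsf18.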
